A study of Mus musculus with 9 samples.

Results

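The transcripts of 6 mouse genes, Fcgr1, Fcgr2b, Fcgr3, Fcgr4 and Fcgrt for receptors of the constant part of immunoglobulin G (IgG) and the Fc receptor-like gene Fcrls, were followed in bone marrow-derived macrophages (BMDMs). They were taken by gene name from a table of 28379 genes and were chosen by name and family, with earlier results of these data known. BMDMs are macrophages grown from bone marrow with macrophage colony-stimulating factor (M-CSF), and RANKL is the cytokine that turns them into osteoclasts, the cells that resorb bone. All cells came from 10-week-old C57BL/6J mice and stayed in M-CSF (20 ng/ml) for the 48 h of treatment. Cells of the PBS group had no RANKL. Those of the RANKL group had RANKL at 100 ng/ml. RANKL + Vit D + K cells had the same RANKL combined with calcitriol at 1000 nM, the hormone made from vitamin D, and with menaquinone-4 at 20 μM by the sample labels, which is a vitamin K. RNA sequencing gave 9 libraries, 3 in each group, with total counts between 65915112 and 68229647. The labels number the replicates but do not say whether they came from separate mice or cultures, and the methods speak of pooled RNA, so p-values measure only the spread between these libraries, which may be technical. All 6 genes passed the filter on low counts that left 17002 genes for testing.

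Fc receptors let a phagocyte sense antibody that has coated a particle. Fcgr1, which binds single IgG molecules tightly, and Fcgr3 and Fcgr4, which need IgG in complexes, are activating: they signal through the shared gamma chain Fcer1g and the kinase Syk, and lead to engulfment, release of cytokines and antigen presentation. Fcgr2b carries an inhibitory motif of its own, recruits the lipid phosphatase SHIP-1 (Inpp5d) and dampens the same response, so the balance of the activating receptors and Fcgr2b sets how a macrophage answers immune complexes. Fcgrt encodes the neonatal Fc receptor, which pairs with B2m inside endosomes and returns IgG to the cell surface instead of letting it be degraded. Fcrls is an Fc receptor-like gene with a scavenger receptor domain, best known as a marker of microglia. In bone, Fc gamma receptors and Fcer1g are also known as co-stimulatory partners of RANKL in osteoclast precursors.

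In the deposited table, 3 of the genes lie side by side on chromosome 1 of the GRCm38 build within 106.3 kb: Fcgr2b (chr1:170958617-170976547, minus strand), Fcgr4 (chr1:171018920-171029761, plus strand) and Fcgr3 (chr1:171051174-171064935, minus strand). Fcgr1 (chr3:96282909-96293969) and Fcrls (chr3:87250758-87263738) are on the minus strand of chromosome 3, and Fcgrt (chr7:45092990-45103851) is on the minus strand of chromosome 7. Fcgr2b and Fcgr3, of opposite function, are close copies of each other in the part that encodes the IgG-binding domains. Their coding sequences were 96.5% identical over 509 aligned bases, and a run of 129 bases was the same in both. The 150 bases below show why the counts of this pair may be less certain than those of the other genes, which was not measured. They lie in exons 3 and 4 of both, at chr1:170967980-170968054 and chr1:170966626-170966700 in Fcgr2b and at chr1:171057691-171057765 and chr1:171054119-171054193 in Fcgr3, and the capital marks the only base that differs.
Fcgr2b: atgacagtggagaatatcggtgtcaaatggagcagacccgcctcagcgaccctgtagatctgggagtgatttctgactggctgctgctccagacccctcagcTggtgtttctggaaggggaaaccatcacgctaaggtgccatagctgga
Fcgr3: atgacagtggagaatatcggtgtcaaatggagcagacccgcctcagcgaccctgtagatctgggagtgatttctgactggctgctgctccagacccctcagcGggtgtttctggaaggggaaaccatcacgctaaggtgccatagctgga
Of all 100-base windows of the main transcripts (GENCODE M21), 3.54% in Fcgr2b and 3.53% in Fcgr3 also occurred in a transcript of another gene, and none of length 150 did. In Fcgr3 these were 44 windows, all shared with Fcgr2b, while the 122 windows of Fcgr2b were shared with 6 further genes besides Fcgr3. Of the 50-base windows, 11.4% in Fcgr2b and 12.8% in Fcgr3 were shared with another gene, and none in Fcgr1, Fcgr4, Fcgrt or Fcrls was. The reads were 150 bases long by the methods, and how reads from shared stretches were assigned is not stated.

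**Figure D1:**
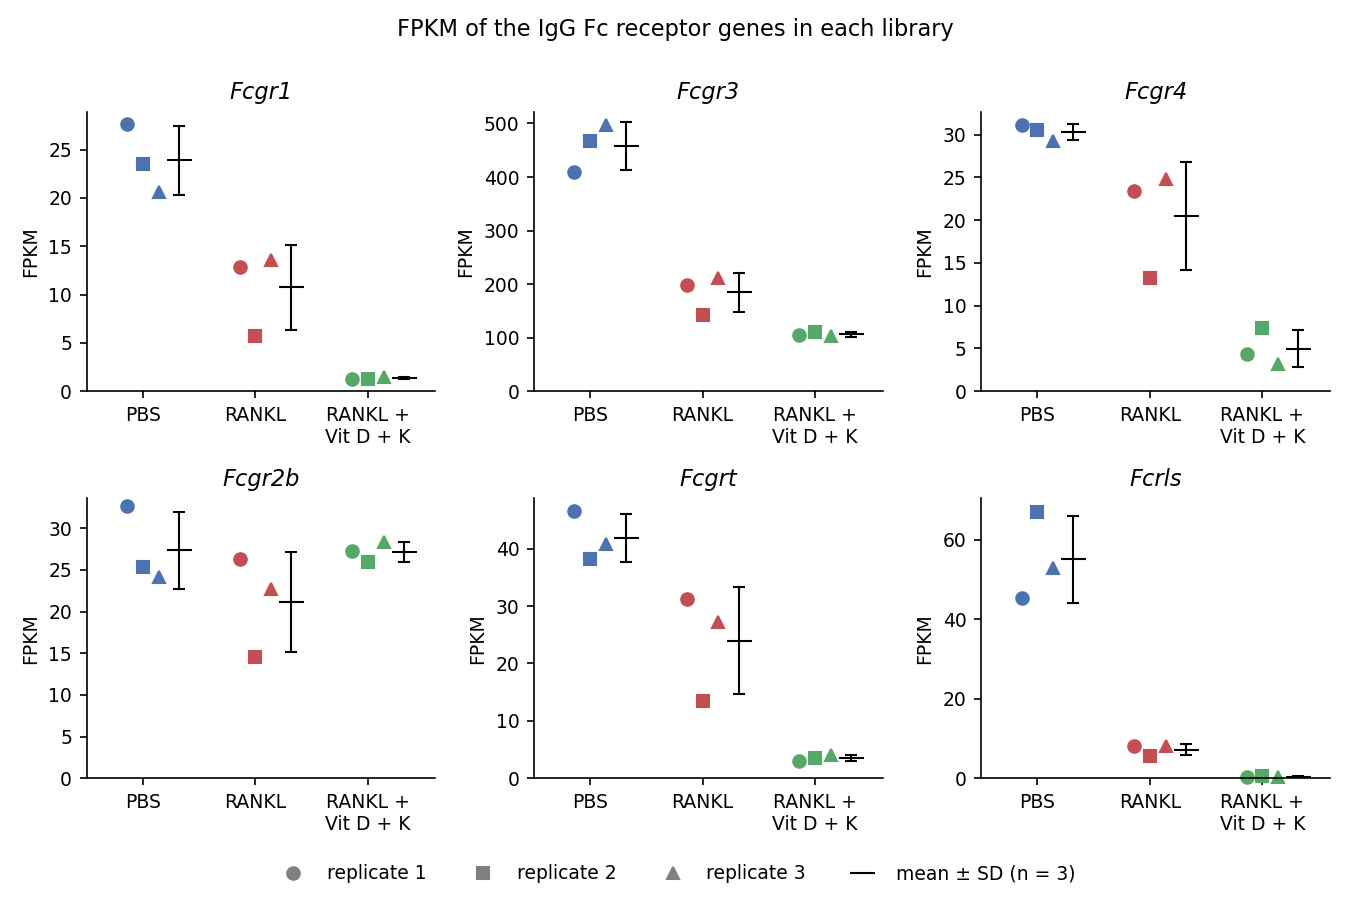
FPKM (fragments scaled to gene length and library size) of each gene on linear axes that start at 0, with 1 point per library, the symbol giving the replicate number, and the bar giving the mean ± SD of 3 libraries. Fcgr2b stays between 14.5 and 32.7 FPKM in all groups, while the RANKL + Vit D + K libraries lie below the other groups for the remaining 5 genes.

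The level of Fcgr1, the high-affinity activating receptor, was 27.6, 23.5 and 20.6 FPKM in PBS replicates 1, 2 and 3. It was 12.9, 5.71 and 13.6 FPKM with RANKL alone, and 1.3, 1.28 and 1.43 FPKM with RANKL and the vitamins. The 3 groups were separate, and the vitamin-treated libraries were the lowest and closest together. Fcgr1 fell by 2.87 on the log2 scale between the RANKL and the RANKL + Vit D + K groups (standard error, SE, 0.333), with an adjusted p of 0.000822 (edgeR, quasi-likelihood test, Benjamini-Hochberg over the 17002 genes). The log2 fold change of RANKL versus PBS was -1.26 (SE 0.312) and missed the threshold of 0.05 (adjusted p = 0.0619, edgeR). Replicates of these 2 groups deviated together by number, and with the replicate number as a block the value was -1.35 and passed (adjusted p = 0.0401, edgeR). It also passed under DESeq2 (adjusted p = 0.00296), in limma on log2(FPKM + 1) (adjusted p = 0.0493), without RANKL replicate 2 (-0.94, adjusted p = 0.0463, edgeR) and without RANKL + Vit D + K replicate 2 (adjusted p = 0.0383, edgeR).

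Fcgr3, the low-affinity activating receptor that macrophages, neutrophils and natural killer cells share, had the highest level of the 6 genes in every group. Its PBS values were 409, 468 and 497 FPKM, its RANKL values 199, 143 and 212 FPKM, and its RANKL + Vit D + K values 105, 111 and 103 FPKM. No group overlapped another. Fcgr3 fell by 1.43 on the log2 scale with RANKL (SE 0.177, adjusted p = 0.00514, edgeR). The further fall with the vitamins was smaller, -0.66 (SE 0.175, adjusted p = 0.0191, edgeR). That last call depended on single libraries: it was lost without RANKL replicate 1 (adjusted p = 0.0731), without RANKL replicate 3 (adjusted p = 0.0750) and without RANKL + Vit D + K replicate 3 (adjusted p = 0.0557, all edgeR).

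Fcgr4, the activating receptor of intermediate affinity that lies between Fcgr2b and Fcgr3, was at 31.2, 30.6 and 29.3 FPKM in the PBS group and at 23.4, 13.2 and 24.8 FPKM in the RANKL group. With the vitamins it was at 4.34, 7.36 and 3.21 FPKM. Each RANKL value was below each PBS value, and each vitamin value was below each RANKL value. Against the RANKL group Fcgr4 fell by 1.93 on the log2 scale with the vitamins (SE 0.312, adjusted p = 0.00274, edgeR). RANKL versus PBS gave -0.68 (SE 0.301, adjusted p = 0.268, edgeR), which did not pass. With 1 library left out this value ranged from -0.86 to -0.42 and did not pass either.

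Fcgr2b, the inhibitory receptor, took another course. Its level was 32.7, 25.3 and 24.1 FPKM with PBS, 26.3, 14.5 and 22.7 FPKM with RANKL, and 27.3, 26.0 and 28.3 FPKM with RANKL and the vitamins. In CPM (counts scaled to library size with TMM factors) the groups overlapped in all 3 comparisons. RANKL + Vit D + K versus PBS gave a log2 fold change of 0.02 with a 95% confidence interval from -0.51 to 0.55 (adjusted p = 0.958, edgeR), which leaves room for a change of up to 1.46-fold upwards or to 0.703 of the PBS level. Against the RANKL group the value was 0.50, with an interval from -0.03 to 1.03 (adjusted p = 0.129, edgeR). RANKL versus PBS gave -0.48, with an interval from -1.01 to 0.05 (adjusted p = 0.318, edgeR). Without RANKL replicate 2 these values were 0.27 against RANKL and -0.25 for RANKL versus PBS, and without PBS replicate 1 the latter was -0.28.

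Fcgrt, the recycling receptor, was at 46.6, 38.3 and 40.7 FPKM in the PBS libraries, at 31.2, 13.4 and 27.3 FPKM in the RANKL libraries and at 2.97, 3.44 and 4.0 FPKM in the RANKL + Vit D + K libraries. The groups were again separate. Between the RANKL and the RANKL + Vit D + K groups Fcgrt fell by 2.65 on the log2 scale (SE 0.312, adjusted p = 0.000864, edgeR). RANKL versus PBS gave -0.91 (SE 0.294), which missed the threshold in edgeR (adjusted p = 0.132) and with the replicate block (adjusted p = 0.0665) and passed in DESeq2 (adjusted p = 0.0398). With 1 library left out the Fcgrt value ranged from -1.16 to -0.61 and did not pass. The transcript of its partner B2m, the light chain it shares with class I antigen-presenting molecules, did not pass: its log2 fold change was 0.15 with the vitamins against RANKL alone (SE 0.163, adjusted p = 0.5, edgeR), and its RANKL values of 1193, 1035 and 1305 FPKM overlapped the vitamin values of 1291, 1064 and 1179 FPKM.

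Fcrls had the largest differences of the 6 genes in each comparison. It was at 45.4, 67.1 and 52.8 FPKM with PBS, at 8.0, 5.49 and 8.05 FPKM with RANKL, and at 0.208, 0.498 and 0.286 FPKM with RANKL and the vitamins, where the counts were 37, 90 and 50. Fcrls fell by 3.05 on the log2 scale with RANKL (SE 0.273, adjusted p = 0.00121, edgeR), the 53rd lowest value among the 17002 genes. With the vitamins it fell by 4.31 against RANKL alone (SE 0.302, adjusted p = 0.000158, edgeR). Over both steps, RANKL + Vit D + K versus PBS, it fell by 7.36 (SE 0.340, adjusted p = 3.10e-05, edgeR), and the mean FPKM of the PBS group was 167 times that of the RANKL + Vit D + K group.

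**Figure D2:**
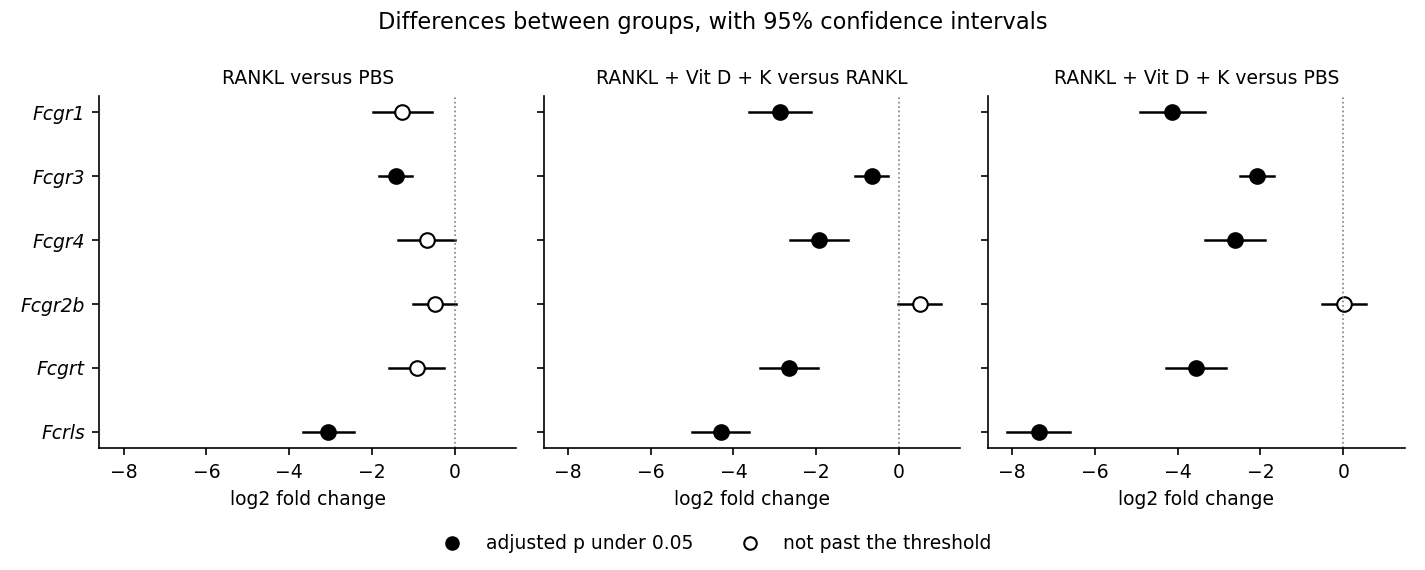
Log2 fold change of each gene (x axis) in the 3 comparisons, from edgeR on the counts, with its 95% confidence interval as a line. Filled points passed an adjusted p of 0.05: 2 genes in RANKL versus PBS and 5 in each comparison of the vitamin-treated group, with Fcgr2b open in all 3.

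Counted over the family, 2 of the 6 genes, Fcgr3 and Fcrls, were lower with RANKL than with PBS, where 1.26% of all tested genes were lower. None of the 6 was higher (2.35% of all tested genes). The log2 fold changes of the other 4 were below 0 but missed the threshold. For 5 of the 6, all but Fcgr2b, every RANKL library had a lower CPM than every PBS library, which held for 19.9% of all tested genes. With the vitamins added to RANKL, 5 of the 6 genes were lower, against 17.2% of all tested genes, and none was higher (16.4%; in either direction 33.7%). In CPM the same 5 did not overlap between the groups (25.4% of all tested genes). Against PBS, the RANKL + Vit D + K group was also lower for 5 of 6, against 21.0% of all tested genes, and higher for none (19.8%, in either direction 40.8%). These 5 did not overlap in CPM (29.0% of all tested genes). The median log2 fold change of the 6 genes was -1.09, -2.29 and -3.09 in the 3 comparisons in this order, and that of all tested genes was -0.04 in each. The 3 comparisons share libraries, so they are not independent of each other. In bulk RNA, fewer cells that carry a transcript and less of it per cell cannot be told apart.

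The size of the change differed along the family, and the order of the genes changed with it. In the PBS group the mean levels ran from Fcgr3 (458 FPKM) through Fcrls (55.1), Fcgrt (41.9), Fcgr4 (30.3) and Fcgr2b (27.4) to Fcgr1 (23.9 FPKM). Fcrls and Fcgrt overlapped there, as did Fcgr4 with Fcgr2b and Fcgr2b with Fcgr1. With RANKL alone, Fcgr3 (184 FPKM) stayed apart while each of the next neighbours overlapped, from Fcgrt (24.0) over Fcgr2b (21.2), Fcgr4 (20.5) and Fcgr1 (10.7) to Fcrls (7.18 FPKM). With RANKL and the vitamins, Fcgr3 (106 FPKM) was followed by Fcgr2b (27.2 FPKM), and below these lay Fcgr4 (4.97), Fcgrt (3.47), Fcgr1 (1.34) and Fcrls (0.331 FPKM), of which Fcgr4 and Fcgrt overlapped. Fcgr2b thus moved from the fifth place to the second while its own mean level was 27.4 FPKM before and 27.2 FPKM after.

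The balance of activating and inhibitory receptor transcripts followed from these levels. The summed FPKM of the 4 Fcgr genes was 539 ± 35.5 (SD, n = 3) with PBS, 237 ± 52.7 with RANKL and 139 ± 5.13 with RANKL and the vitamins. Fcgr2b made up 5.12% ± 1.23 of that sum in the PBS group, 8.88% ± 1.03 with RANKL and 19.5% ± 1.53 with RANKL and the vitamins (SD, n = 3). The share of Fcgr1 was 4.47%, 4.39% and 0.962% in the same order, and that of Fcgr3 was 84.8%, 78.2% and 76.0%. The share of Fcgr4 was 5.65%, 8.51% and 3.53%.

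As a ratio, Fcgr1, Fcgr3 and Fcgr4 together exceeded Fcgr2b by 14.3, 20.6 and 22.7 times in the PBS libraries, by 8.93, 11.1 and 11 times in the RANKL libraries and by 4.05, 4.6 and 3.79 times in the RANKL + Vit D + K libraries. No 2 groups overlapped. On the log2 scale the mean difference was -0.87 for RANKL versus PBS, -1.32 for RANKL + Vit D + K versus RANKL and -2.19 for RANKL + Vit D + K versus PBS. The exact two-sided permutation test gave p = 0.1 for each (adjusted p = 0.1 over the 3 comparisons), which is the smallest value that 3 libraries against 3 can give, so this design cannot reach 0.05. Without Fcgr3, the near copy of Fcgr2b, the ratio of Fcgr1 and Fcgr4 to Fcgr2b had a log2 difference of -2.69 for RANKL + Vit D + K versus RANKL, where the ratio with Fcgr3 in the sum had -1.32. For RANKL versus PBS it was smaller without Fcgr3, -0.46 against -0.87, and for RANKL + Vit D + K versus PBS it was -3.15 against -2.19.

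**Figure D3:**
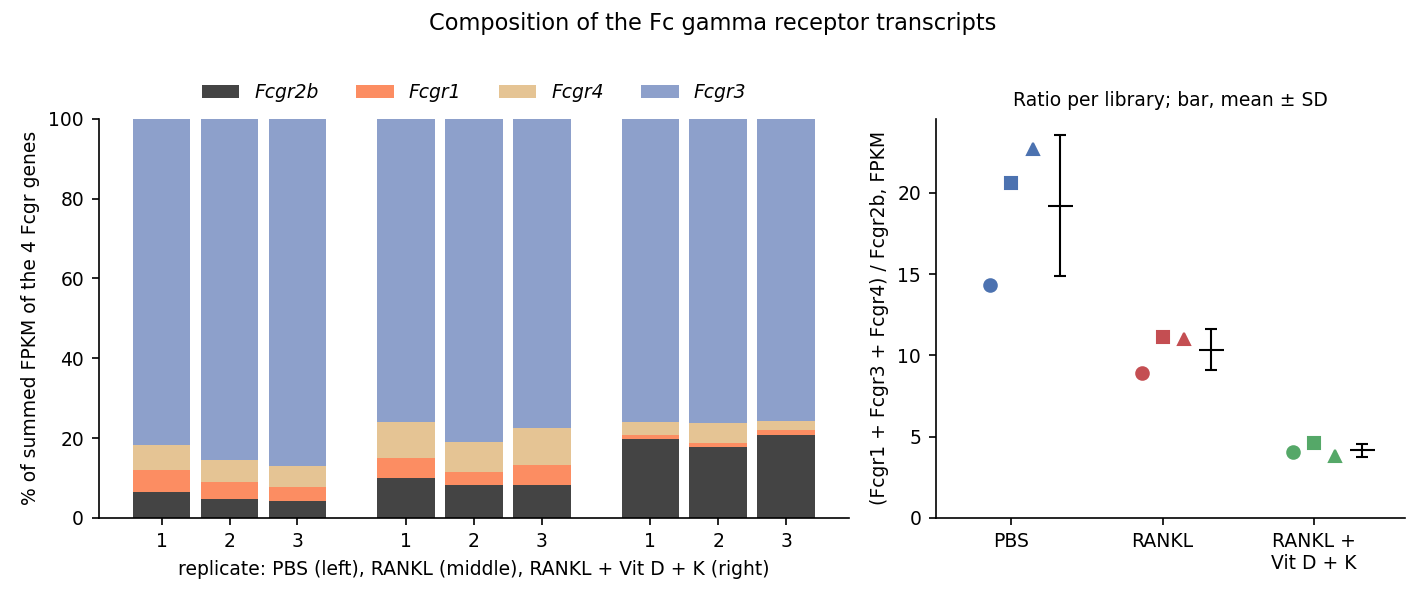
Left, share of each gene in the summed FPKM of the 4 Fcgr genes (stacked to 100%) in every library. Right, ratio of the summed FPKM of Fcgr1, Fcgr3 and Fcgr4 to the FPKM of Fcgr2b per library, with mean ± SD (n = 3), from 19.2 ± 4.35 with PBS over 10.4 ± 1.24 with RANKL to 4.14 ± 0.412 with RANKL and the vitamins.

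The promoters of the 4 Fcgr genes are shown because 3 of them fell together with the vitamins while Fcgr2b did not pass. The windows run from 250 bases before to 50 bases after the RefSeq transcription start (GRCm38.p6), and a window was found for each of the 6 genes. The Fcgr2b window lies inside its gene's span in the deposited table (upstream end at chr1:170976547). Fcgr3 has a pair of listed starts, both inside its gene's span (upstream end at chr1:171064935), and the window of the upstream start is shown. They were searched on both strands for TTCNNNGAA (the interferon gamma-activated site), the interferon-stimulated response element (a repeat of GAAA with any 2 bases between), GAGGAA (a core bound by PU.1), TGACTCA (AP-1), CACGTG (the E-box bound by MITF), and vitamin D response elements (a repeat of AGGTCA with any 3 bases between, or the same with GGTTCA). Capitals mark the matches.
Fcgr1, chr3:96293920-96294219, minus strand: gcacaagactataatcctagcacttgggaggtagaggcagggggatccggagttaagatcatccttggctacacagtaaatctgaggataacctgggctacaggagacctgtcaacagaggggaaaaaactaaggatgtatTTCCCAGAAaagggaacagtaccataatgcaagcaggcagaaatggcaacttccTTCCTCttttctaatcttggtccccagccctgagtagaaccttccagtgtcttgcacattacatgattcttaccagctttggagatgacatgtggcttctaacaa
Fcgr3, chr1:171059354-171059653, minus strand: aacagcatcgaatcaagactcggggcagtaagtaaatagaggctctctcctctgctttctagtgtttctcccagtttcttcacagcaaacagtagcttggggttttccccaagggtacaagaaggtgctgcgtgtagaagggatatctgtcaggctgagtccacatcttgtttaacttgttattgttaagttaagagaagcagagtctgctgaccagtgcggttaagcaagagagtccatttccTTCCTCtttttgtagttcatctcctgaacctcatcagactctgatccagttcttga
Fcgr4, chr1:171018676-171018975, plus strand: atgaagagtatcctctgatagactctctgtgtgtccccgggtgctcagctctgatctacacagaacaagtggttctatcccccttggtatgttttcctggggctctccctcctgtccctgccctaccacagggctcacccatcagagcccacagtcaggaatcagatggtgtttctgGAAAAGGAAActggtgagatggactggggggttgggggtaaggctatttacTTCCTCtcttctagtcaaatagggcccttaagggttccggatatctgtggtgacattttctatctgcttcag
Fcgr2b, chr1:170976022-170976321, minus strand: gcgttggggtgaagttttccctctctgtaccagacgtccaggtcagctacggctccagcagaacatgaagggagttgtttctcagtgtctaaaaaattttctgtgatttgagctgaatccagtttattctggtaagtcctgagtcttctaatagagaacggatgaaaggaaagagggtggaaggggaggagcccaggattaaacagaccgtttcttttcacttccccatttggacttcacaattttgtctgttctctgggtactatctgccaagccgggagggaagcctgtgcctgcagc
The Fcgr1 window held an interferon gamma-activated site whose first base lies 109 bases before the start, a sequence that 8.30% of all 32851 promoter windows contain. The Fcgr4 window held an interferon-stimulated response element 73 bases before the start (3.44% of all windows). A PU.1 core was present in Fcgr1, Fcgr3 and Fcgr4, in each as TTCCTC on the gene's strand, at 55, 6 and 22 bases before the start, and also in Fcrls at 144 bases before the start (28.3% of all windows). TGACTCA (5.20% of all windows), CACGTG (7.15%) and both vitamin D response elements (0.00609% each) had no match in the 6 genes. None of the 7 motifs matched in the windows of Fcgr2b and Fcgrt. These matches are a description of the letters in these windows, and no match says nothing of binding elsewhere. No 2 matches overlapped.

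The transcripts of the interferon gamma pathway, which is known to raise Fcgr1 and Fcgr4 in macrophages, were measured in the same libraries. Of 13 genes, none passed in RANKL versus PBS (edgeR, where 3.61% of all tested genes passed in either direction), and with the vitamins 8 were below their RANKL levels and none above (17.2% and 16.4% of all tested genes), with a median log2 fold change of -1.32. The chemokine Cxcl9 had 8 to 36 counts per library with RANKL and 0 counts in all 3 vitamin-treated libraries. Ciita, the master factor of class II antigen presentation, fell by 6.59 on the log2 scale, the guanylate-binding protein gene Gbp5 fell by 5.94 and the chemokine gene Cxcl10 fell by 4.74. Of the upstream genes, the receptor chain Ifngr1 fell by 1.16. Jak1, Jak2, Ifngr2, Irf8 and Socs1 did not pass. Among 6 transcription factors of the myeloid lineage, Cebpb (1.46) and Mitf (0.62) were higher with the vitamins, as were 16.4% of all tested genes. Cebpa (-0.49) and Spi1 (-0.46), the gene of PU.1, were lower (17.2% of all tested genes). With RANKL alone, Cebpa (-0.95) and Runx1 (-0.59) were lower than with PBS (1.26% of all tested genes).

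The genes that carry the signal of the activating receptors were mixed. Fcer1g, the shared gamma chain, was at 446, 446 and 432 FPKM with PBS, at 380, 319 and 358 FPKM with RANKL and at 254, 319 and 271 FPKM with the vitamins. The last 2 groups met at 319 FPKM, and the log2 fold change between them was -0.19 (SE 0.111, adjusted p = 0.226, edgeR). Against PBS, Fcer1g was lower with the vitamins (-0.63, adjusted p = 0.00260, edgeR). Of 19 genes of activating signalling, 3 were higher and 7 lower in RANKL + Vit D + K than in RANKL (median log2 fold change -0.13), where 16.4% of all tested genes were higher and 17.2% lower. The Src-family kinase genes Src (-2.27) and Fgr (-2.09) fell, and the adaptor genes Lat2 (1.72) and Gab2 (1.63) rose. Both kinase genes had risen with RANKL against PBS, Src by 4.57 and Fgr by 2.71, the only 2 of the 19 to pass in that comparison, where 2.35% of all tested genes were higher and 1.26% lower.

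Genes that restrain the signal were also mixed. Inpp5d, the phosphatase that Fcgr2b recruits, was at 43.1, 40.9 and 42.1 FPKM with RANKL and at 18.7, 28.9 and 21.9 FPKM with the vitamins, where it fell by 0.73 on the log2 scale (SE 0.121, adjusted p = 0.00315, edgeR). Its log2 fold change with RANKL against PBS was -0.24 (adjusted p = 0.330, edgeR). Of 13 genes of inhibitory phosphatases, adaptors and receptors, 2 rose and 6 fell when the vitamins were added, against the same 16.4% and 17.2% of all tested genes. The ubiquitin ligase gene Cblb rose by 2.92 and the inhibitory receptor gene Lilrb4a by 1.28, while the adaptor gene Dok3 (-1.33) and the phosphatase gene Ptpn6 (-1.25) fell. With RANKL against PBS, Lilrb4a (-0.56) alone of the 13 passed (1.26% of all tested genes were lower, 2.35% higher). Among 15 genes of the phagocytic cup and the NADPH oxidase, 2 rose (16.4% of all tested genes) and 8 fell (17.2%) with the vitamins, with Cybb, the catalytic oxidase subunit, at -1.42, Marcks at -1.27, Rac2 at -0.74 and Arf6 at 0.76. Myo10, a myosin of the phagocytic cup, was the only one of the 15 to pass with RANKL against PBS (2.53, where 2.35% of all tested genes were higher). Of 6 tested partners and receptors of other immunoglobulins, only Trim21, the cytosolic antibody receptor, passed with the vitamins (-2.23, adjusted p = 0.00542, edgeR). This 1 lower gene of 6 is near the 17.2% of all tested genes that were lower. None of the 6 passed with RANKL against PBS (3.61% of all tested genes in either direction).

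**Figure D4:**
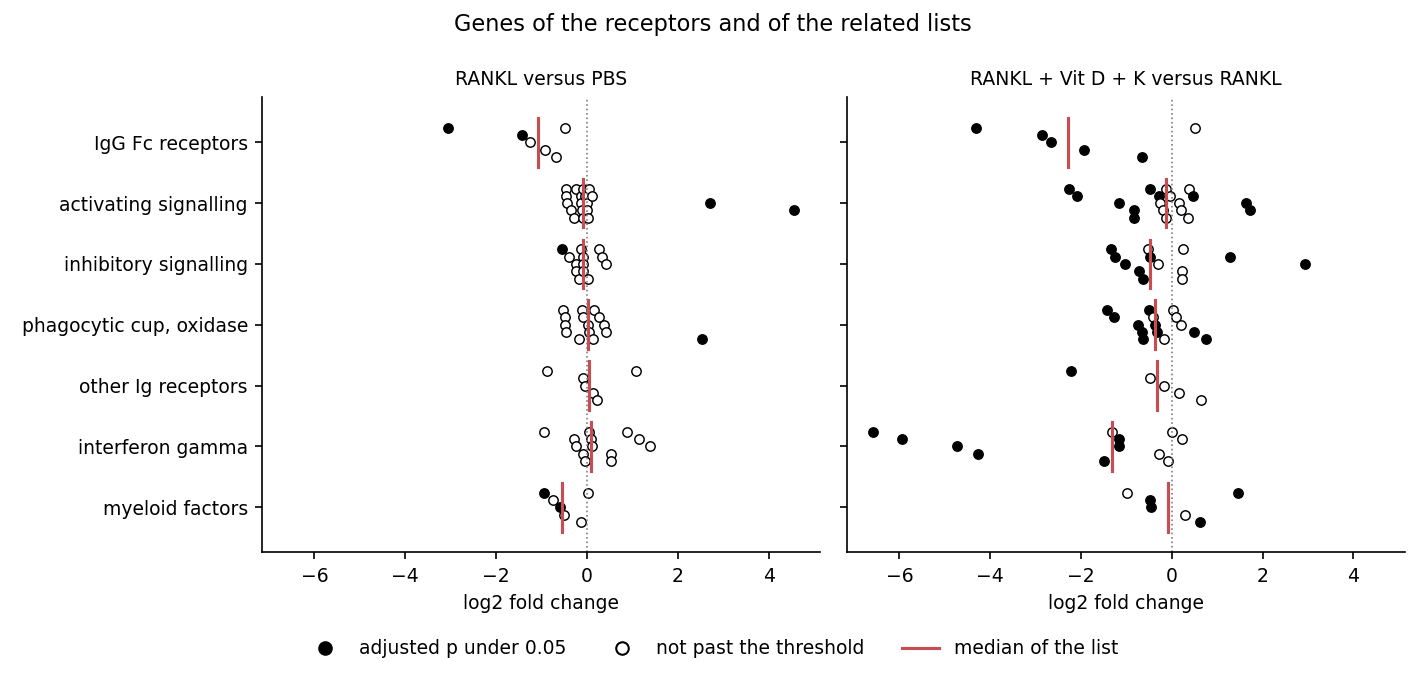
Log2 fold change (x axis, edgeR) of every tested gene of the receptors and 6 related lists (cell type markers are not drawn), with filled points past an adjusted p of 0.05 and a red line at the median of the list. Cxcl9 and Fcrl5, which had 0 counts in the vitamin-treated libraries, are not drawn on the right but count in the medians (with Fcrl5 set to its bound against 3 counts, the median of its list is -0.08 in place of -0.33). Of the 7 lists drawn there, the receptors and the interferon gamma list have the lowest medians, -2.29 and -1.32.

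Markers of the cells themselves moved as well. Of 6 macrophage markers, Mertk (-1.89), Lyz2 (-1.61), Csf1r (-1.45) and Adgre1 (-0.78) were lower, Cd68 (0.53) was higher and Itgam did not pass with the vitamins against RANKL alone (edgeR, where 17.2% of all tested genes were lower and 16.4% higher). Their summed level, in which Lyz2 weighs most, was 16595 to 24172 FPKM with RANKL and 4484 to 11506 FPKM with the vitamins, against 26260 to 30462 FPKM with PBS. The 6 osteoclast markers summed to 403 to 762 FPKM with RANKL, 49.8 to 78.6 FPKM with the vitamins and 13.6 to 20.8 FPKM with PBS. Acp5 and Ctsk make up most of the RANKL sum, and 5 of the 6 were lower with the vitamins (17.2% of all tested genes), while Atp6v0d2 did not pass (-0.23, adjusted p = 0.701, edgeR). RANKL replicate 2 had the highest osteoclast sum, and it was the lowest RANKL library for all 6 receptor genes. Their part in the fall of the receptors was not tested.

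Transcripts that mark neutrophils, which also carry Fcgr3 and Fcgr4, were found in the PBS and RANKL libraries. The 8 neutrophil markers summed to 11.1 to 128 FPKM with PBS, 11.3 to 148 FPKM with RANKL and 0.551 to 1.72 FPKM with the vitamins, where Ly6g, Elane, Mpo, Camp and Ltf were at 0. Ly6g was at 0 in the RANKL group too. Their part in the levels of Fcgr3 and Fcgr4 was not tested. Markers of B cells, which carry Fcgr2b as their main Fc receptor, were close to 0: 4 of their 5 markers were in the table, and these summed to at most 0.795 FPKM in any library. Markers of mast cells and basophils, natural killer and T cells, dendritic cells, and stromal and endothelial cells (3 of 6, 1 of 5, 5 of 5 and 6 of 6 in the table) summed to at most 0.354, 0.103, 0.746 and 0.665 FPKM.

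Across the 9 libraries, each gene was compared with all other tested genes by the root-mean-square difference of their log2 CPM, each centred on its own mean. Fcgrt lay nearest to Selenop (0.107), a selenium carrier gene, and next to Cyp27a1 and Siglec1. Fcgr1 lay nearest to Siglec1 (0.254), the sialic acid receptor of macrophages, and then to Fcgrt itself (0.258) and Selenop (0.300). Fcgr3 was closest to the chemokine gene Ccl6 (0.207), Ldlrad3 and Rcbtb2, and Fcgr4 to Cox6b2 (0.142), Gm15927 and Ly86. The neighbours Fcgr4 and Fcgr3 differed by 0.601, more than Fcgr4 and Fcgrt (0.516). Fcrls was closest to the transglutaminase gene F13a1 (0.361), which went from 36.2 FPKM over 3.65 to 0.229 FPKM, and then to Apoc2 and Fam222a. Fcgr2b had Gm8066, Gm12655 and Pex11a as the nearest genes. Some of the named genes were low in every group. Their highest mean, with PBS, was 0.829 FPKM for Gm12655, 0.685 for Cox6b2, 0.509 for Fam222a and 0.435 for Gm15927.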

How the data were processed

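RNA sequencing libraries of BMDMs (3 per group) were grouped and numbered by their titles. The authors deposited 1 table with whole-number counts of reads per gene, not normalized, and FPKM values that the authors scaled to gene length and library size. The submitters' processing notes name cutadapt 1.9, HISAT2 2.0.4, StringTie 1.3.4d and edgeR. They name the human build hg38, while the gene identifiers and coordinates of the table are those of mouse GRCm38 (GENCODE M21), which were used here. Strand use and the treatment of reads that match several genes are not given in the sources used here. MK4 was at 20 μM by the labels and at 40 μM by the methods text.

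Counts were tested in R 4.3.3 with edgeR 4.0.16 (filterByExpr, TMM, quasi-likelihood test, all 9 libraries in 1 fit, Benjamini-Hochberg over 17002 genes, threshold 0.05); the standard error is the log2 fold change divided by the square root of F. Levels are means ± SD of FPKM. Ratios per library were compared by exact permutation tests. The table's depth of 65915112 to 68229647 counts per library puts 3 counts at no more than 4.55e-06% of a library, counting error only. The 6 genes and all lists were chosen with earlier results of these data known. Named from each pathway list were up to 4 genes with the largest absolute log2 fold change among those past the threshold, besides Fcer1g, Inpp5d and B2m, and the 3 nearest genes per receptor; Ifngr1, Ifngr2, Jak1, Jak2, Irf8 and Socs1 and the macrophage and osteoclast markers were named after their values were seen. Of 132 listed genes, 119 were in the table and 13 were not analysed here. Same-numbered RANKL and PBS libraries deviated together (correlation across genes 0.122 to 0.219), which gave the pairing of these 2 groups. For RANKL + Vit D + K the same correlations were weaker, 0.00625 to 0.107 with RANKL and -0.0216 to 0.0237 with PBS. They do not settle whether those libraries are paired. Alternatives were DESeq2 1.42.0, other size factors and filters, limma 3.58.1 on log2(FPKM + 0.1, 1 or 0.01), the 2 groups alone, the replicate block and each library left out. The fit was tested on simulated counts. Promoter sequences are RefSeq's, on GRCm38.p6.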

Additional observations from a re-analysis of the deposited data

How the results depend on the processing

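In RANKL + Vit D + K versus RANKL and versus PBS, the 5 lower receptor genes kept their direction under every alternative run, and their calls held except that of Fcgr3 in the first, whose log2 fold change ranged from -0.84 to -0.52 with libraries left out. With libraries left out, 4 to 5 receptor genes passed there and 2 to 3 in RANKL versus PBS. DESeq2 called 4 receptor genes in RANKL versus PBS instead of 2, and 1706 genes in all instead of 614. A fit of the 2 groups alone called 1736. Leaving out 1 library gave 126 (without PBS replicate 3) to 1903 genes (without RANKL + Vit D + K replicate 2), and 3199 (without RANKL replicate 1) to 8259 (without RANKL + Vit D + K replicate 2) in RANKL + Vit D + K versus RANKL, against 5725. For RANKL + Vit D + K versus PBS the range was 4766 to 8868, against 6932. The Fcgr2b value against PBS, 0.02, turned to -0.0017 without PBS replicate 2 and to -0.0075 without PBS replicate 3, in a range of -0.0075 to 0.22 with libraries left out. The cause of these moves was not tested. Limma on log2(FPKM + 0.1) moved the share of higher genes among those called from 48.8% to 35.6% in RANKL + Vit D + K versus RANKL, with the median of all genes from -0.04 to -0.16, and from 65.1% to 74.5% in RANKL versus PBS, where a pseudocount of 0.01 gave 76.9%.

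With the replicate block, 825 genes passed in RANKL versus PBS, with 3 receptor genes, and 5873 and 7041 in the other comparisons. In every comparison the labels link samples by no more than a number. With the block, Fcgr2b passed against RANKL (0.54, adjusted p = 0.0410, edgeR), which made 6 receptor genes in place of 5. Apart from Fcgr1 and Fcgr2b the block changed no receptor's call. Every library of the RANKL and PBS groups correlated best with its own number. The log2 ratio of activating to inhibitory transcripts was negative under each of its 10 alternatives per comparison, from -1.07 to -0.46, from -2.69 to -1.18 and from -3.15 to -2.06, and paired by number its exact p was 0.25, the smallest 3 pairs allow. Tests with 3 libraries a group, replicate 2 of the RANKL group apart from the others and the near copy of Fcgr2b and Fcgr3 limit these values.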
